A study of Mus musculus with 4 samples.

Results

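The lymphatic vessel genes examined here are Lyve1, Prox1, Flt4, Ccl21a, Pdpn, Vegfc, Mmrn1 and Reln, 8 of the 22913 genes listed in each library, taken by name as genes known from lymphatic endothelium and its growth signals. They were measured by RNA sequencing of dermal white adipose tissue (dWAT), the fat layer around the lower ends of hair follicles (HFs), microdissected from C57BL/6 mice. The 4 groups are OTD (old mice, 18 months, telogen, the resting phase of the HF), YTD (young mice, 2 months, telogen), OAD (old mice, 18 months, anagen, the growth phase) and YAD (young mice, 2 months, anagen), and anagen was induced by depilation at both ages. The study's methods give tissue of 20 mice for each group, and each group is 1 library, so there is no spread between replicates and no difference below carries a test. Ages follow the group names and the treatment text, because the age field of the labels gives 18 months for YTD and 2 months for OAD.

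Lymphatic vessels drain fluid and leukocytes from the skin. Their endothelial cells arise from veins under the transcription factor Prox1 and are then kept apart from blood vessels. Vegfc, a secreted growth factor, acts through the receptor Flt4 (VEGFR-3) to make them sprout and grow. Initial lymphatics release the chemokine Ccl21, which draws dendritic cells carrying Ccr7 into the vessel, and Ccl21a is among the mouse genes for it. Lyve1, a hyaluronan receptor, marks initial lymphatics and also many resident macrophages. None of these genes is restricted to lymphatic endothelium, and in a whole tissue fewer cells of a type and less RNA per cell cannot be told apart.

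The values are FPKM (fragments scaled by the gene's listed length and by the depth of the library), used as deposited. From where the lowest values gather, each library was estimated to hold 17900000 to 23700000 fragments. The estimate is rough, and the 95% intervals below, made from it, cover counting error only. Genes of the mitochondrial genome held 14.4% to 52.7% of the summed FPKM, highest in OTD, and keratin and keratin-associated protein genes held 13.9% and 15.1% in the anagen libraries against 0.0635% and 0.113% in the telogen libraries. The 13 adipocyte markers of the tissue on the label summed to 9450 and 10300 FPKM in telogen and to 2090 and 2710 in anagen. The 14 skeletal muscle markers were above them in every library, at 59100 FPKM in OTD and 93100 in YTD, against 14100 in OAD and 10700 in YAD. The part of these other tissues in the values of the lymphatic vessel genes was not tested.

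Ccl21a (ENSMUSG00000094686, chr4:42772860-42773993 on GRCm38, minus strand) has near-identical copies in the mouse genome, which bears on how its reads could be assigned. Ccl21b, Gm10591, Gm13304 and Gm21541 each have 402 coding bases, as Ccl21a does, and each differs from it at 2 of them (99.5% identity). The substitutions are T84A and C194T in each copy, with the base of Ccl21a first and positions counted from 1 at the start of the coding sequence. The stretch from coding position 69 to 209 is shown for Ccl21a and for Ccl21b, from GENCODE M21 transcripts on GRCm38, with the bases that differ in capitals.
Ccl21a: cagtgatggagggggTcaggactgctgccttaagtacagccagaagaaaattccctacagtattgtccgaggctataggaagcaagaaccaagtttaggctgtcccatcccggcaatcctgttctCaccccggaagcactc
Ccl21b: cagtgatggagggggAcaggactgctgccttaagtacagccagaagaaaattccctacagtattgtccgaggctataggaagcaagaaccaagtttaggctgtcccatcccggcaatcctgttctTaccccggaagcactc
The 4 copies were listed at 0 in every library. Whether reads of the copies were assigned to Ccl21a is not given in the sources used here, so the Ccl21a values are uncertain as values of that single gene.

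Ccl21a was the most abundant of the lymphatic vessel genes per length in every library, though its counting interval overlapped that of Lyve1 in YAD. It stood at 52.3 FPKM in OTD and 16 in YTD, against 3.95 in OAD and 2.85 in YAD. The counting intervals kept OTD above YTD and both telogen libraries above both anagen libraries, and those of OAD and YAD overlapped. Mmrn1 (ENSMUSG00000054641, chr6:60944476-60989378, plus strand), a large secreted protein stored by platelets and made by lymphatic endothelium, stood at 14.5 FPKM in OTD and 4.22 in YTD, against 1.83 in OAD and 1.54 in YAD. It had the order of Ccl21a, with the same overlap between the anagen libraries. Reln (ENSMUSG00000042453, chr5:21884454-22344702, minus strand), a secreted glycoprotein of lymphatic collecting vessels that is best known from neurons, was lower, at 2.75 FPKM in OTD and 1.25 in YTD, against 0.68 in OAD and 0.549 in YAD.

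The axis of growth signal, receptor and transcription factor was present at low levels. Vegfc (ENSMUSG00000031520, chr8:54077532-54186454, plus strand) stood at 4.82 FPKM in OTD and 2.72 in YTD, against 1.2 in OAD and 0.905 in YAD. Its receptor Flt4 (ENSMUSG00000020357, chr11:49609263-49652739, plus strand) stood at 3.6 FPKM in OTD and 2.44 in YTD, against 0.863 in OAD and 1.07 in YAD. Prox1 (ENSMUSG00000010175, chr1:190118035-190170714, minus strand) stood at 1.74 FPKM in OTD and 0.972 in YTD, against 0.276 in OAD and 0.375 in YAD. All 3 genes were highest in OTD, then YTD, and for each of them the counting intervals of OAD and YAD overlapped. In the anagen libraries Prox1 rested on an estimated 14.5 and 14.9 fragments, the fewest of the genes above 0 apart from Lyve1 in OAD.

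Lyve1 (ENSMUSG00000030787, chr7:110850607-110862953, minus strand) had another order. It stood at 3.21 FPKM in OTD and 4.52 in YTD, against 0.537 in OAD and 2.63 in YAD, so it was highest in YTD and the young library was above the old one in each phase. The counting intervals of OTD (2.45 to 4.11) and YTD (3.59 to 5.62) overlapped, and those of OAD and YAD did not. Its value in OAD is an estimated 12.2 fragments.

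Pdpn (ENSMUSG00000028583, chr4:143267431-143299564, minus strand), the mucin-like glycoprotein podoplanin of lymphatic endothelium that fibroblasts and keratinocytes also make, was listed at 0 in all 4 libraries. A value of 0.244 to 0.322 FPKM would be 3 fragments of this gene. Ranbp1, Coro1b and Txnrd2, genes that nearly all cells use, were listed at 0 in every library as well, as were 4761 genes in all, so no level or change is given for Pdpn.

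**Figure D1:**
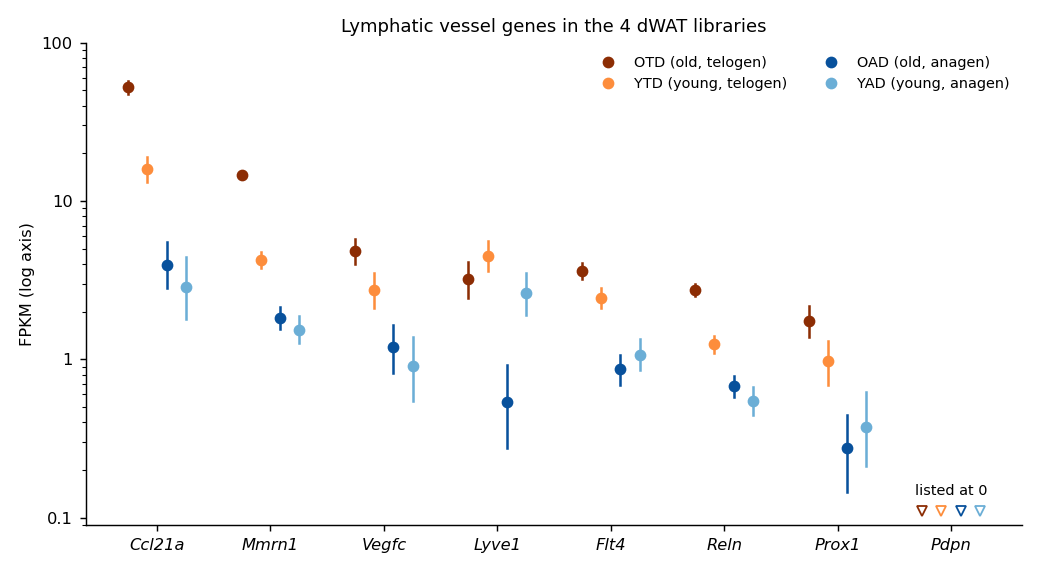
FPKM of each lymphatic vessel gene on a log axis (points) with 95% counting intervals (lines), in OTD, YTD, OAD and YAD. Ccl21a spans 2.85 to 52.3 FPKM, Lyve1 alone is higher in young than in old mice at both phases, and Pdpn is listed at 0 (open triangles).

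The first comparison asked how dWAT of old and young mice differed in telogen. Of the 7 lymphatic vessel genes above 0, 6 were higher and 1 lower in OTD than in YTD, and no scaling tried turned the direction of any of them, including one to equal sums of 15 blood endothelial markers in each library, which was chosen after seeing the data. Changes are differences of log2(FPKM + 1), a scale on which low genes change less than their fold, and those of at least 1 were counted. Ccl21a and Mmrn1 were higher by at least 1 (2 of 7, where 1.67% of 17230 genes were) and none was lower by at least 1 (1.93% of genes were). The median change of the 7 was 0.64, beside -0.03 over all genes. When mitochondrial, muscle and keratin genes were left out and each library was rescaled to an equal total, 3.64% of genes were higher and 1.98% lower by at least 1.

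Ccl21a was 3.28-fold higher in OTD than in YTD (interval 2.67 to 4.05), a change of 1.65 that ranked 55 from the largest rise among 17230 genes. Mmrn1 was 3.44-fold higher (3.02 to 3.93), a change of 1.57 that ranked 64. Both changes were larger than those of the other 5 genes. Reln was 2.2-fold higher (1.89 to 2.57). The ligand Vegfc was 1.77-fold higher (1.29 to 2.42). Flt4 was 1.48-fold higher (1.23 to 1.78) and Prox1 was 1.79-fold higher (1.22 to 2.72), changes of 0.42 and 0.47. Lyve1 went the other way, at 0.711 of its young value (0.499 to 0.999).

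In anagen the same comparison gave smaller differences for all of these genes but Lyve1, though the difference between phases was not tested. OAD exceeded YAD for 4 of the 7 genes and was below it for 3, with Mmrn1 turned to -0.04 by equal blood endothelial sums, and the median change was 0.12, beside 0.00 over all genes. Lyve1 was the only gene of the 7 with a change of at least 1, and it was lower (0.454% of 17613 genes were lower and 0.727% higher by at least 1, or 0.994% and 0.59% after rescaling to TPM). Lyve1 was 4.9-fold lower in OAD than in YAD (2.58 to 10.3), a change of -1.24 that ranked 45 from the largest fall. The other 6 ratios of OAD over YAD had counting intervals that held 1. They were 1.39 for Ccl21a (0.785 to 2.46), 1.19 for Mmrn1 (0.918 to 1.54), 1.24 for Reln (0.964 to 1.6), 1.32 for Vegfc (0.745 to 2.42), 0.807 for Flt4 (0.586 to 1.11) and 0.735 for Prox1 (0.316 to 1.57). Counting alone therefore did not resolve the direction of these 6 genes in anagen. The upper limits for Ccl21a, Mmrn1, Reln, Flt4 and Prox1 were below their telogen ratios of 3.28, 3.44, 2.2, 1.48 and 1.79. That of Vegfc was above its telogen ratio of 1.77. With 1 library per group these gaps were not tested.

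**Figure D2:**
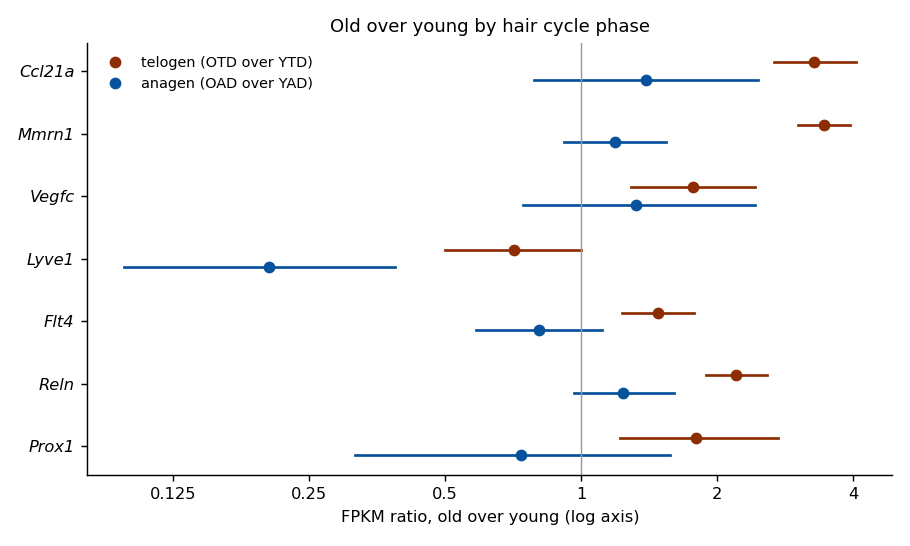
Ratio of FPKM in old over young mice (log axis) with 95% counting intervals, in telogen and in anagen, for the 7 genes above 0. In telogen Ccl21a and Mmrn1 lie at 3.28 and 3.44 and Lyve1 at 0.711, and in anagen only the interval of Lyve1 lies away from 1.

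Lyve1 was set beside macrophage markers, since macrophages make it too. The 15 markers summed to 448 FPKM in OTD and 390 in YTD, against 110 in OAD and 145 in YAD. In anagen all 15 were lower in OAD than in YAD, none by as much as 1, with a median change of -0.29 against -1.24 for Lyve1, and all 15 were lower under every scaling tried. Folr2, a folate receptor of resident macrophages, had the largest of these changes, from 7.73 FPKM in YAD to 4.24 in OAD. In telogen 10 of the 15 were higher and 5 lower in OTD, with a median of 0.24 (4 and 11, with a median of -0.16, at equal blood endothelial sums), and Cd68, a lysosomal protein, was higher by 1.20. The 5 lower ones were Cd163, Folr2, Cbr2, Cd209f and Timd4, the last from 17 estimated fragments or fewer. Mrc1, F13a1 and Mertk, which resident macrophages also carry, were higher in OTD, at 8.91, 15.7 and 5.27 FPKM against 7.25, 14.3 and 3.82. Cd163 stood at 3.33 FPKM in OTD and 4.67 in YTD, Folr2 at 21.2 and 25, and Cbr2 at 46 and 65.9. By the mean over the 4 libraries the most abundant of the markers, the complement genes C1qa and C1qb, stood at 96.6 and 103 FPKM in OTD and at 80.6 and 82 in YTD. The part of macrophages in the Lyve1 values was not tested.

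**Figure D3:**
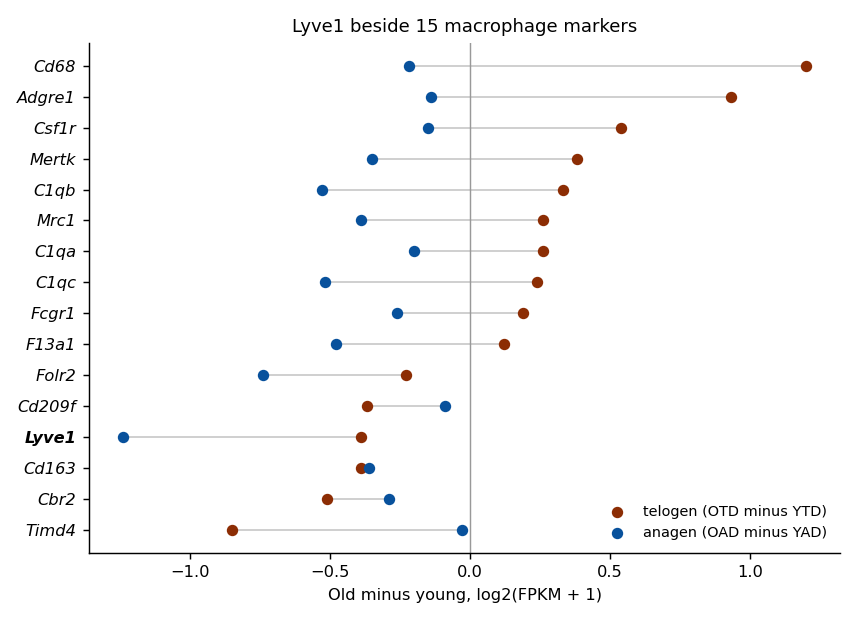
Old minus young difference of log2(FPKM + 1) for Lyve1 and 15 macrophage markers in telogen and in anagen. In anagen all 15 markers are below 0 and Lyve1, at -1.24, is below each of them, while in telogen Lyve1 lies among the 5 markers that are lower in old mice.

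Fibroblast markers differed as well. In anagen 10 of 11 were lower in OAD than in YAD, 3 of them by at least 1, where 0.454% of all genes were. These 3 were the collagens Col1a1, Col1a2 and Col3a1, with Col3a1 at 33.5 FPKM in OAD and 95.6 in YAD. In telogen 9 of 11 were higher in OTD (6 of 11 at equal blood endothelial sums). Dcn and Lum, small proteoglycans of the matrix, were higher by at least 1, where 1.67% of all genes were. Dcn stood at 599 FPKM in OTD and 230 in YTD, and Dpt, another matrix protein, at 313 and 280. The summed fibroblast markers were 1760 FPKM in OTD and 1280 in YTD, against 250 in OAD and 474 in YAD. Their part in the lymphatic vessel genes was not tested.

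Markers of lymph nodes, whose stromal cells release Ccl21a, were set beside it. The 11 markers summed to 7.62 FPKM in OTD and 4.26 in YTD, against 2.91 in OAD and 1.66 in YAD. In telogen 8 were higher and 2 lower in OTD, with a median of 0.22. Cxcl13, a chemokine of B cell follicles, made up most of the sum, at 4.33 FPKM in OTD and 2.6 in YTD, and the B cell gene Cd79b stood at 1.09 and 0.243. The defining B cell genes Cr2 and Ms4a1 were at most 0.0222 FPKM in any library. The part of lymph node or lymphocytes in the Ccl21a values was not tested. Of the platelet markers, set beside Mmrn1, 3 of 7 were higher and 4 lower in OTD than in YTD (4 and 3 by median of ratios), and their sum was 75.6 FPKM in OTD and 66.7 in YTD, nearly all of it from Pf4. The platelet genes Gp9 and Treml1 were at most 0.456 FPKM. The sums in telogen therefore rest mostly on Pf4, and the part of platelets in the Mmrn1 values was not tested. Schwann and nerve markers were higher in OTD for 7 of 7 (5 of 7 at equal blood endothelial sums), with a median of 0.46 and sums of 740 and 562 FPKM.

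The second comparison was that of anagen with telogen at each age. It shares its libraries with the comparison of ages, so the values are given side by side and not as a separate line of evidence. In old mice all 7 genes were lower in OAD than in OTD, a direction that no scaling tried turned. As deposited all 7 were lower by at least 1 (15.6% of 17712 genes were, and 16.1% were higher). In TPM 3 were, and 2 at equal blood endothelial sums, where 8.48% and 1.49% of genes were. The median change was -1.40 as deposited, -0.97 in TPM and -0.37 at equal blood endothelial sums. Ccl21a was 13.2-fold lower in OAD (9.43 to 18.8), a change of -3.43 that ranked 35 from the largest fall, and Mmrn1 was 7.94-fold lower (6.67 to 9.43). Prox1 was 6.29-fold lower, Lyve1 5.99-fold, Flt4 4.17-fold, Reln 4.03-fold and Vegfc 4.02-fold.

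In young mice all 7 were lower in YAD than in YTD, by a median of -0.73, and Ccl21a and Mmrn1 by at least 1 (2 of 7, where 16.7% of 17622 genes were, and 16.1% were higher), but rescaling to the same blood endothelial sum put Lyve1, Prox1, Flt4, Mmrn1 and Reln above 0 and TPM put Lyve1 above 0. Ccl21a was 5.62-fold lower in YAD than in YTD (3.42 to 9.17) and Mmrn1 2.74-fold lower (2.16 to 3.46). Vegfc was 3-fold, Prox1 2.59-fold, Flt4 2.28-fold, Reln 2.27-fold and Lyve1 1.72-fold lower. The scaling set much of this comparison. In TPM 33.4% of genes were higher and 7.23% lower by at least 1 in young mice, and 27.8% and 8.48% in old mice, with the median of all genes at 0.45 and 0.32. At equal blood endothelial sums that median was 0.97 in young and 1.06 in old mice. The phase changes of the lymphatic vessel genes in FPKM are therefore relative to a choice of scale.

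Blood endothelial markers give a reference for vessels within each library. All 15 were lower by at least 1 in anagen at both ages, where 16.7% of all genes were in young and 15.6% in old mice. When rescaled to TPM 3 were in young and 8 in old mice, where 7.23% and 8.48% of all genes were. The medians as deposited were -1.51 in young and -1.62 in old mice. The summed FPKM of these markers was 886 in OTD and 660 in YTD, against 276 in OAD and 225 in YAD. By the mean over the 4 libraries the most abundant were Plvap, a protein of endothelial diaphragms, at 174, 131, 75.8 and 58.5 FPKM in OTD, YTD, OAD and YAD, Egfl7 at 143, 104, 45.8 and 31.9, and Rgcc at 95.7, 83.5, 38.8 and 33.3. Between ages 12 of the 15 were higher in OTD than in YTD, with a median of 0.34. Emcn was higher by at least 1 (1.67% of all genes were), at 48.1 against 21.5 FPKM. In anagen 13 of 15 were higher in OAD than in YAD (median 0.22), or 8 of 15 in TPM (median 0.02).

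Set against this sum, 6 of the 7 lymphatic vessel genes were less far apart between phases at both ages, and Lyve1 in old mice alone. Per 1000 FPKM of blood endothelial markers Mmrn1 was 16.4 in OTD and 6.4 in YTD, against 6.64 in OAD and 6.87 in YAD, so that OTD stood apart from the other 3 libraries. Ccl21a was 59.1 in OTD and 24.2 in YTD, against 14.3 in OAD and 12.7 in YAD, and kept its order. Vegfc lay between 4.03 and 5.44, Reln between 1.89 and 3.1, Flt4 between 3.13 and 4.77 and Prox1 between 1 and 1.96. Lyve1 was 3.62 in OTD and 6.84 in YTD, against 1.95 in OAD and 11.7 in YAD, lower in old than in young mice in both phases.

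**Figure D4:**
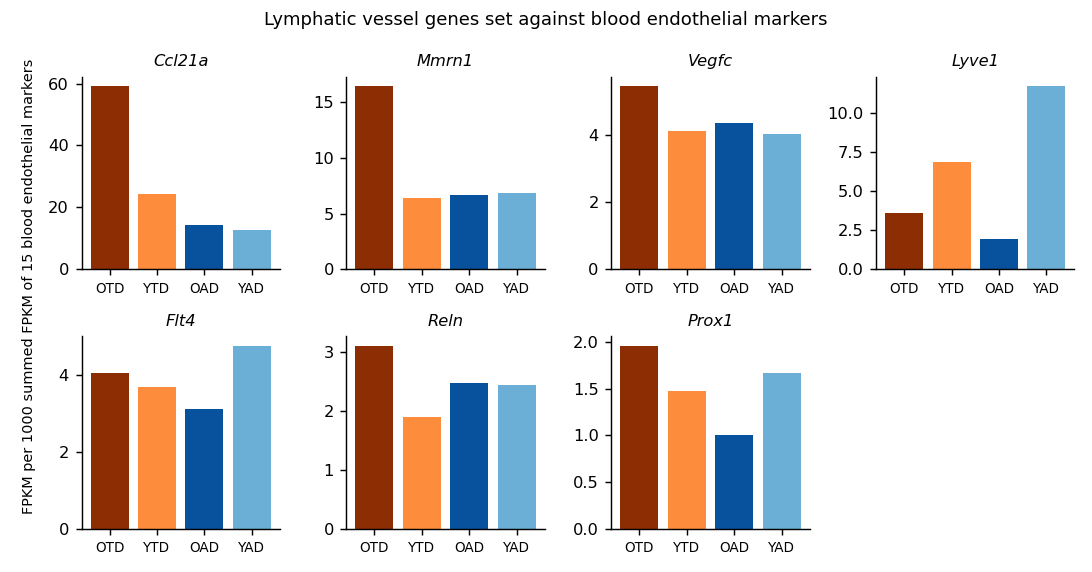
FPKM of each lymphatic vessel gene per 1000 FPKM of the 15 summed blood endothelial markers, in OTD, YTD, OAD and YAD (bars from 0, 1 library each). Mmrn1 is 16.4 in OTD and 6.4 to 6.87 elsewhere, and Lyve1 is highest in YAD, at 11.7.

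Further genes of the lymphatic system were counted by role. Of 16 growth signals and their processing factors, 12 were higher and 4 lower in OTD than in YTD, none by at least 1, with a median of 0.36. In anagen the split was 9 higher and 7 lower in OAD (median 0.04), or 5 and 11 in TPM (median -0.11). Between phases 14 of the 16 were lower in YAD than in YTD, 7 of them by at least 1, and 13 were lower in OAD than in OTD, 8 of them by at least 1, beside 16.7% and 15.6% of all genes lower by as much. In TPM 2 in young and 7 in old mice were lower by at least 1 (7.23% and 8.48% of all genes were). At equal blood endothelial sums none was (3.43% and 1.49% of all genes were), and 4 of the 16 were lower in young and 9 in old mice. By the mean over the 4 libraries the 3 most abundant were Ramp2, the co-receptor that makes Calcrl an adrenomedullin receptor, at 93.5 FPKM in OTD and 57.2 in YTD, against 21 in OAD and 21.1 in YAD, Tie1, a receptor of the angiopoietin system, at 32.2, 21, 8.23 and 7.87, and Piezo1, a mechanically gated channel, at 22.9, 43.2, 24.6 and 20.9. Piezo1 was the one of the 3 that was lower in OTD than in YTD, by -0.89. Vegfd, the second ligand of Flt4, stood at 6.37 FPKM in OTD and 5.12 in YTD, against 1.88 in OAD and 2.19 in YAD, and Nrp2, a co-receptor for Vegfc that other cells also carry, was higher in anagen, at 23.3 and 24.5 FPKM against 11.6 and 9.05.

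Of 10 transcription factors, 8 were higher and 2 lower in OTD (median 0.57). Klf2, a factor induced by flow, was higher by at least 1 (1.67% of all genes were), at 138 FPKM against 56.7. In anagen OAD was the higher library for 5 and the lower for 5 (median 0.05, or -0.15 in TPM). Sox18, which acts upstream of Prox1, stood at 64.6 FPKM in OTD, 44.8 in YTD, and 19.1 in both OAD and YAD. Foxc2, a factor of lymphatic valves, stood at 2.71 FPKM in OTD and 1.04 in YTD, against 0.781 in OAD and 1 in YAD. From telogen to anagen 3 of the 10 were higher by at least 1 at both ages, where 16.1% of all genes were. Foxc1 and Tbx1 were among the 3. Tbx1 stood at 10.7 and 13.2 FPKM in telogen and at 54.8 and 42 in anagen. The other 7 were lower, 6 of them by at least 1 in young and 7 in old mice, where 16.7% and 15.6% of all genes were. At equal blood endothelial sums none was lower by at least 1, where 3.43% of all genes were in young and 1.49% in old mice.

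Of 14 genes of junctions and valves, 10 were higher and 4 lower in OTD (median 0.37) and 6 were higher and 8 lower in OAD (median -0.04), none by at least 1. From telogen to anagen 10 were lower and 4 higher at each age as deposited, but 7 and 7 in young mice in TPM, and 5 lower and 9 higher at each age at equal blood endothelial sums. The 4, Gja1, Celsr1, Vangl2 and Efnb2, were higher by at least 1 as deposited, where 16.1% of all genes were at each age. Cldn5, the main claudin of endothelial tight junctions, stood at 101 FPKM in OTD and 57 in YTD, against 22.2 in OAD and 14.3 in YAD, and Esam, an endothelial adhesion molecule, at 65.2, 44, 16.6 and 14.1. Gja1, a connexin that keratinocytes also carry, went the other way between phases, at 28.8 and 34.7 FPKM in telogen and 488 and 481 in anagen, beside keratinocyte markers that summed to 82.6 and 119 FPKM in telogen and 2410 and 1680 in anagen. The part of keratinocytes in these values was not tested.

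Of 14 genes of leukocyte traffic, 13 were higher and 1 lower in OTD (median 0.41), and the anagen split was 8 higher and 5 lower in OAD (median 0.06, or -0.05 in TPM). From telogen to anagen 12 were lower at each age, 6 in young and 8 in old mice at equal blood endothelial sums (medians as deposited -0.43 in young and -0.56 in old mice), and Sphk1 and Cd44 were higher. Clca3a1, a protein of lymphatic endothelium, was the one higher by at least 1 in telogen (1.67% of all genes were), at 10.1 FPKM in OTD and 4.05 in YTD. S1pr1, a receptor for sphingosine 1-phosphate on endothelium and lymphocytes, stood at 58 and 30.2 FPKM in OTD and YTD, Spns2, the transporter that exports that lipid, at 43.8 and 42.3, and Thy1 at 42.6 and 28.7. Ccr7, the receptor for Ccl21a, was at most 0.483 FPKM, in OTD, and was listed at 0 in OAD. Ccl19, the other ligand of Ccr7, was at most 0.979 FPKM, and Ackr4, which takes up both chemokines, stood at 2.78 FPKM in OTD and 1.77 in YTD, against 1.33 in OAD and 1.26 in YAD.

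Set to equal blood endothelial sums, the medians in telogen were 0.02 for the growth signals, 0.18 for the transcription factors, 0.02 for junctions and valves and 0.08 for leukocyte traffic. None of these genes was higher by at least 1, and the median of all genes was -0.24. Tek is in both the growth signal list and the blood endothelial list, and the 4 lists were not chosen to leave out genes of blood endothelium. The gap between these medians and that of the 7 lymphatic vessel genes was not tested. On that scale the 7 lymphatic vessel genes had a median of 0.27, and 6 were higher in OTD. Ccl21a (1.21) and Mmrn1 (1.10) were still higher by at least 1, where 0.447% of all genes were. The same scale put the medians between phases in young mice at 0.13, 0.15, 0.41 and 0.11 for the 4 lists, where they were below 0 as deposited. In old mice it put them at -0.06, -0.20, 0.20 and -0.17, against -1.14, -1.72, -1.0 and -0.56 as deposited. The median of all genes between phases was 0.97 in young and 1.06 in old mice on that scale, above the medians of all 4 lists.

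**Figure D5:**
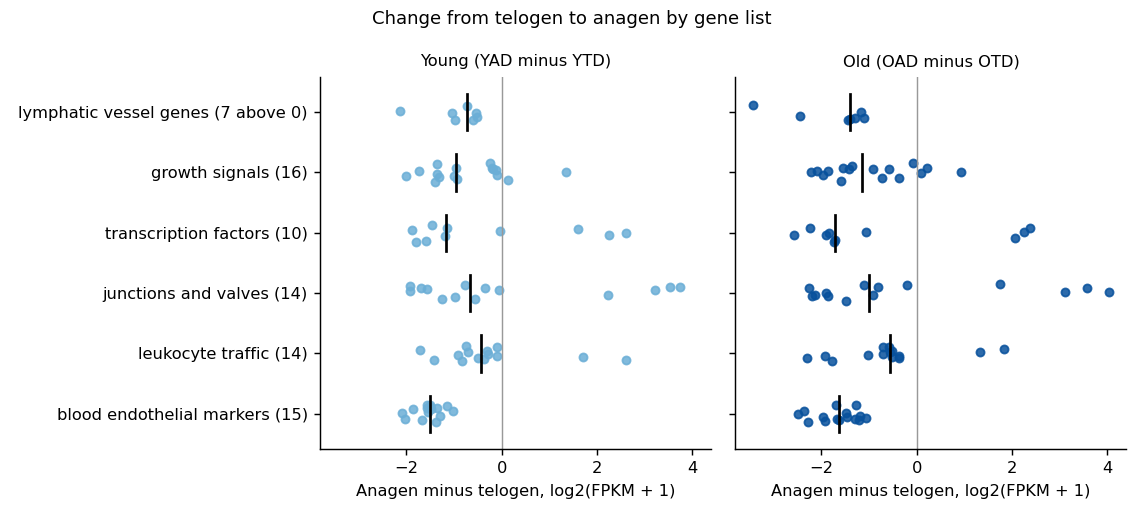
Anagen minus telogen difference of log2(FPKM + 1) for the 7 lymphatic vessel genes, 4 lists of lymphatic genes by role and 15 blood endothelial markers, in young and in old mice (points are genes, bars are medians). The medians of the 7 genes are -0.73 in young and -1.40 in old mice, and all blood endothelial markers lie below -1.

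The genes whose levels over the 4 libraries were most like those of each lymphatic vessel gene were found by the distance between centred log2(FPKM + 1) values among 13567 genes. With 4 libraries many genes share any such order, so the distances are a description. Ccl21a was nearest to Inmt (distance 0.236; 179 FPKM in OTD and 52.3 in YTD, against 13 in OAD and 9.6 in YAD), then to Ccl11, the chemokine eotaxin (0.248; 49.3, 17.7, 4.93 and 3.17), and to Mpeg1, a macrophage gene (0.440). Mmrn1 was nearest to Cp, Plac9a and Clec4n. Lyve1 was nearest to Gm20498, to the collagen gene Col5a1 (0.293; 8.47, 9.82, 2.99 and 6.79) and to Adcyap1r1. Prox1 was nearest to Amz1, Itga1 and Reck, Flt4 to Hspa12a, Sdc2 and Cers2, Vegfc to P2ry12, Tnfrsf1b and Hoxd10, and Reln to Irak3, Osmr and Smim14. Flt4 had Prox1 as its neighbour number 157 (distance 0.21). Ccl21a had Mmrn1 as number 165 (1.05), while from Mmrn1 Ccl21a was number 868. The lymphatic vessel gene nearest to Lyve1 was Flt4, as number 1172, at a distance of 0.96. That distance is smaller than the one between Ccl21a and Mmrn1, so the numbers do not order the pairs by distance.

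The promoters of the 2 genes higher by at least 1 in OTD are shown to set their sequences side by side, from RefSeq on GRCm38.p6, from 250 bases before to 50 bases after the start, which held entries for 7 of the 8 genes. Capitals mark matches, on either strand, to ACAAT (SOX) and GGAAAA (NFAT), the only motifs with a match in these windows among 6 searched. The others were the nuclear receptor motif AGGTCA (in 16.3% of all promoters of the table), the motif of GATA factors, spelled AGATAA (in 11.2%), the ETS motif CCGGAA (in 14.9%) and the forkhead motif TGTTTA (in 13.4%). The Ccl21a window is chr4:42773942-42774241 on the minus strand and the Mmrn1 window is chr6:60944067-60944366 on the plus strand.
Ccl21a: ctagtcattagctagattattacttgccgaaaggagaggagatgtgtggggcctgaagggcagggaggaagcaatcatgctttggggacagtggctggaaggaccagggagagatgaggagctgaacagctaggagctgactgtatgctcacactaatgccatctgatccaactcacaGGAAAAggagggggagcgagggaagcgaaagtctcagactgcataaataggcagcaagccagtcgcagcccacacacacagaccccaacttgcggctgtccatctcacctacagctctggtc
Mmrn1: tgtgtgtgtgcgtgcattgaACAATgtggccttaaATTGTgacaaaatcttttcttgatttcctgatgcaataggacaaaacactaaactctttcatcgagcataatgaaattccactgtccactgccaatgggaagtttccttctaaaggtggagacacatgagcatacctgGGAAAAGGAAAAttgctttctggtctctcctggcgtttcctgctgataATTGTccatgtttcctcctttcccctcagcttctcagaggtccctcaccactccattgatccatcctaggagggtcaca
Both windows hold GGAAAA, once for Ccl21a and at 2 places for Mmrn1, as do 23.4% of 32851 promoters, and Mmrn1 holds ACAAT at 3 places, as do 31% at 1 place or more.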

How the data were processed

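RNA from dWAT of OTD, YTD, OAD and YAD was sequenced as 1 library per group. The files the authors deposited hold the FPKM of 22913 genes, their positions on GRCm38 and a listed length. The submitters' processing notes name bcl2fastq and TopHat2, while the annotation, the counting tool and any scaling between libraries are not given in the sources used here. Of 22166 Ensembl IDs, 21750 matched a symbol. Read counts were not used here, and the lowest values of 2000 to 4000 bp features gave an estimate of depth. The FPKM were used as deposited, with a pseudocount of 1. Intervals (95%) are exact Poisson for levels and exact binomial for ratios, from estimated fragments, and a value worth 3 fragments is the floor. With 1 library per group no test was possible, and a change of at least 1 was counted. The genes and lists were chosen with earlier results of these data known. Named are the 8 genes, the 3 most abundant genes and those past 1 between ages in lists by role, in blood endothelial, macrophage and fibroblast markers, near-absent defining markers and the 3 nearest genes. Vegfd, Nrp2, Foxc2, Ccr7, Ccl19, Ackr4, Pf4, Folr2, Cd163, Cxcl13, Cd79b, Mrc1, F13a1, Mertk, Cd209f, Timd4, Foxc1, Tbx1, Sphk1, Cd44, Celsr1, Vangl2 and Efnb2 were named after their values were seen, and some list genes are not reported here. The alternatives were pseudocounts of 0.1 and 0.01, a filter at 1 FPKM, median of ratios, TPM, leaving out mitochondrial, muscle and keratin genes, summing Ccl21a with its copies, a fold of 1.5, leaving out Lyve1 and Pdpn, and, chosen after seeing the data, equal blood endothelial sums. The steps were tested on simulated libraries. Python 3.11.15, numpy 2.4.6, pandas 2.3.3, scipy 1.17.1 and matplotlib 3.10.9 were used.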

Additional observations from a re-analysis of the deposited data

Results flagged for a closer look

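Prox1 was higher in OTD than in YTD and lower in OAD than in YAD, with changes of 0.47 in telogen and -0.11 in anagen on the log2(FPKM + 1) scale. Flt4 had the same pair of directions, with changes of 0.42 and -0.15. Each was picked out because the single library of each age moved opposite ways in the 2 phases. The difference between phases was not tested, and the counting intervals of both ratios in anagen held 1.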

How the results depend on the processing

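No paired analysis was possible because each group is 1 library. Directions between old and young mice kept for all 7 genes in telogen, and in anagen for all but Mmrn1, which went to -0.04 with equal blood endothelial sums. For the 7 genes, a fold of 1.5 gave 4 higher in telogen (6.75% of all genes were) and 5 lower between phases in young mice (26.1% were). Between phases in young mice 2 were past 1 as deposited, and the count and median were 6 and -1.17 with a pseudocount of 0.1, 6 and -1.35 with 0.01, 1 and -0.22 in TPM, and 1 gene without mitochondrial, muscle and keratin genes. Of all genes, 16.7% were lower by at least 1 as deposited, and 24.3%, 27.6%, 7.23% and 14.9% in those settings, in that order. In old mice the median was -2.29 and -2.56 with pseudocounts of 0.1 and 0.01, and TPM gave 3 genes (8.48% of all genes were lower by at least 1) and -0.97. Equal blood endothelial sums gave a median of 0.27 in telogen, 0 genes and 0.08 between phases in young mice, 2 genes and -0.37 in old mice, and turned Mmrn1 in young mice to 0.08. With these sums 3.43% of all genes were lower by at least 1 between phases in young and 1.49% in old mice. That scaling put the median of all genes at -0.24 in telogen, -0.23 in anagen, 0.97 between phases in young and 1.06 in old mice, and TPM put it at -0.16 between ages in anagen, since either rescales every gene at once. Of the other values for single genes, 20 moved, 12 no longer passed 1 and 10 newly passed it. The other 178 were counted as the same, although some of them changed in size. Ccl21a between phases in old mice went from -3.43 as deposited to -1.89 at equal blood endothelial sums. Lyve1 between ages in anagen went from -1.24 as deposited to -2.27 with a pseudocount of 0.01. Lyve1 in OAD and Prox1 in anagen rest on fewer than 15 estimated fragments.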
